A study of Mus musculus with 18 samples.

Results

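Fatty acid oxidation and muscle energy genes were followed through the differentiation of mouse embryonic stem cells toward cardiomyocytes. The 10 genes were picked by symbol from a deposited table of 23337 genes: Mb, Pdk4, Cpt1b, Acadm, Hadha, Fabp3, Cd36, Ckm, Eno3 and Esrra. All 10 were found and all 10 were among the 14892 genes with enough counts to be tested. The cells were the GLI1-FTA line, built in the A2Lox.cre strain of mouse embryonic stem cells. GLI1 is a transcription factor of the Hedgehog pathway, and doxycycline induced it in this line. GLI1 overexpression (OE) cultures received 500 ng/ml doxycycline for 24 h, between day 5 (D5) and day 6 (D6), and were then washed; control cultures were untreated. There were 3 GLI1 OE and 3 control libraries at D6, 2 and 2 at D8, 2 and 2 at D12, and 4 control libraries at D5, before induction. The labels call D5 and D6 cells cardiac progenitors and D8 and D12 cells immature cardiomyocytes. No group received doxycycline without the induced gene, so GLI1 and doxycycline cannot be told apart.

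A contracting heart cell burns fatty acids and pyruvate in mitochondria. Fatty acids enter through CD36, are carried in the cytosol by FABP3, cross the mitochondrial membrane as carnitine esters made by CPT1B, and are shortened by acyl-CoA dehydrogenases such as ACADM and by the trifunctional protein, of which HADHA is a subunit. PDK4 phosphorylates and so inhibits pyruvate dehydrogenase, which favours fatty acids over glucose; myoglobin (MB) stores oxygen, creatine kinase M (CKM) buffers ATP, enolase 3 (ENO3) is the muscle enolase of glycolysis, and ESRRA is a nuclear receptor that drives mitochondrial genes.

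Total counts per library ran from 18470785 to 26184339. Gli1 checked the labels: it had 1051, 785 and 891 CPM (counts scaled to library size) in the D6 GLI1 OE libraries, against 21.4, 13.7 and 6.84 CPM in the D6 controls. The log2 fold change was 6.02 ± 0.59 (SE here and below; adjusted p = 4.31e-05 in edgeR). The D5 libraries stand apart from the other 14 libraries in a set of genes. Gapdh, a glycolytic enzyme used by nearly every cell and named here after its values were seen, had 0.657 to 4.87 CPM in the 14 later libraries and 1430 to 1470 CPM in the D5 controls. For 110 genes (0.739% of those tested) every D5 library was over 4 times above every later library, and for 3 genes every later library was over 4 times above every D5 library; none of the 10 energy genes was among them. What sets the D5 libraries apart was not tested and cannot be told apart from the day, so the account of time starts at D6 and comparisons with D5 come last. D5 libraries 1 and 2 were close to each other, with a chi-square per gene of 6.85; all remaining pairs of D5 libraries had 50.5 to 93.7. The D8 GLI1 OE libraries 14 and 18 were far apart (chi-square per gene 122). The labels do not say that replicates came from separate cultures, so the tests measure the spread between libraries alone, which may be technical. In bulk RNA, fewer cells of a type and less RNA per cell cannot be told apart.

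The labelled cell type was checked by 16 cardiomyocyte markers, among them Tnnt2, Myh6 and Actc1. Their summed level was 1855 to 5593 CPM in GLI1 OE and 5293 to 12465 CPM in control libraries at D6, 1574 to 15633 CPM in GLI1 OE against 8053 to 18457 CPM in control libraries at D8, and 3798 to 8338 CPM in GLI1 OE against 6683 to 15391 CPM in control libraries at D12. All 16 had counts in every group. The lowest D8 value, 1574 CPM, belonged to GLI1 OE library 18. Markers of other cell types were present too. The 6 smooth muscle markers summed to 2208 to 4602 CPM in GLI1 OE and 4171 to 6386 CPM in control libraries at D6. At D12 they summed to 1078 to 1921 CPM in GLI1 OE and 1717 to 3511 CPM in control libraries. The 10 endothelial markers summed to 797 to 932 CPM in GLI1 OE and 761 to 989 CPM in control libraries at D12. Skeletal muscle, which shares several of the 10 genes, was represented by 12 markers: at D12 they summed to 19.7 to 31.2 CPM in GLI1 OE and 18.2 to 55.1 CPM in control libraries, most of it Acta1, which fetal heart also expresses. Of the regulators that define skeletal muscle, Myf6 had 0 counts at D12 in both conditions, and the level of Myf5 is not given here. Myod1 averaged 0.179 CPM and Myog 2.11 CPM in GLI1 OE libraries, against 0 and 0.0253 CPM in controls, each a mean of 2 libraries. Of the 6 skeletal muscle markers tested between conditions at D12, edgeR called 0, and 1 had an unadjusted p under 0.05. The part of these markers of other cell types in the results was not tested.

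Mb, Pdk4, Ckm and Esrra were the 4 energy genes that rose from D6 to D12 in both conditions. The 250 bases before the start of each are shown, 5′ to 3′ on the gene's strand, as RefSeq gives them in GRCm38.p6; 9 of the 10 genes have such windows (11 in all). Mb (chr15:77022728-77022977, minus strand, the window with the lowest start of 3), Pdk4 (chr6:5496279-5496528, minus strand), Ckm (chr7:19410844-19411093, plus strand) and Esrra (chr19:6921809-6922058, minus strand) are printed in lower case. Capitals mark matches on either strand to 6 motifs: the E-box CAGCTG bound by muscle helix-loop-helix factors, the nuclear receptor half-site AGGTCA, the extended site TCAAGGTCA, the GATA site AGATAA, the GLI site TGGGTGGTC and the TATA motif TATAAA.
Mb: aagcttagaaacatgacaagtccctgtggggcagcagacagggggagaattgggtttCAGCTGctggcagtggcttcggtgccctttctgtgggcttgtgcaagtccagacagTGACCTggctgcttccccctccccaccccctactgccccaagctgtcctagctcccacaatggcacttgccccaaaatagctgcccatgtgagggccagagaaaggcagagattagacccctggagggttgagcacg
Pdk4: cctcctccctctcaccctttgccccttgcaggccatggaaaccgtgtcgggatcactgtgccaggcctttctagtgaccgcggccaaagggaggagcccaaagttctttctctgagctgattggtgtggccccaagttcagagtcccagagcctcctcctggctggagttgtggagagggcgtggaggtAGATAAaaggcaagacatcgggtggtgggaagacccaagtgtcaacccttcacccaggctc
Ckm: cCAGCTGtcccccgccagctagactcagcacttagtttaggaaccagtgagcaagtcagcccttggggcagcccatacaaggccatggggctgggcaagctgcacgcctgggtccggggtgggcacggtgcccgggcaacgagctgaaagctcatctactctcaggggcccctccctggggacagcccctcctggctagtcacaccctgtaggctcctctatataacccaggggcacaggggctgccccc
Esrra: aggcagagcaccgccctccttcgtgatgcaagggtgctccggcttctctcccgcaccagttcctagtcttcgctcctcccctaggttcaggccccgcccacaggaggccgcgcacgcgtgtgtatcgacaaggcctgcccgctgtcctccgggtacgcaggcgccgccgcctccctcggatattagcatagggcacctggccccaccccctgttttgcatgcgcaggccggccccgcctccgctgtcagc
The E-box stood 193 bases before the start in Mb and 249 bases before it in Ckm, and is found in 13.0% of the 32851 windows of this length in the genome table. The half-site AGGTCA stood 137 bases before the start in Mb, printed as TGACCT because it lies on the other strand, and is found in 14.0% of all windows; windows of Acadm, Cd36 and Eno3 also hold it. The GATA site stood 61 bases before the start in Pdk4, against 9.99% of all windows. The window of Esrra held none of the 6. No window of the energy genes held TCAAGGTCA (0.387% of all windows), which contains AGGTCA, the GLI site (0.225%) or TATAAA (12.4%). These matches are descriptions of the letters and say nothing of binding.

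In GLI1 OE cells, 5 of the 10 genes were higher at D12 than at D6 and none was lower, against 60.7% of all genes tested that changed in either direction and 30.6% that rose. The median of the 10 was a log2 fold change of 0.87, and that of all genes was 0.01. In untreated cells 5 were higher and none lower, against 60.3% of all genes in either direction and 29.8% that rose, with a median of 0.78 over the 10 and -0.03 over all genes. In both conditions the share of the 10 that rose was above that of all genes and the share that changed in either direction was below it; the difference was not tested. Both comparisons were added after the D5 libraries were seen to stand apart. Of the 16 cardiomyocyte markers, 5 rose in GLI1 OE cells and 3 in controls, and none fell; their medians were 0.79 and -0.01.

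Mb, the oxygen store, rose most of the 10 in both conditions. It stayed near 1 CPM or below at D5 (0.958, 1.05, 0.207 and 0.169 CPM), and at D6 it had 0.712, 0.416 and 0.455 CPM in GLI1 OE and 0.698, 1.03 and 0.255 CPM in control libraries. At D8 it had 22.3 and 1.59 CPM in GLI1 OE and 101 and 10.7 CPM in control libraries, and at D12 214 and 76.7 CPM against 356 and 198 CPM. Within each condition, every D12 library was above every D8 library, and every D8 library above every D6 library. Of all genes, 31% in GLI1 OE cells and 34.7% in controls were higher without overlap at D12 over D8. At D8 over D6 it was 29.8% and 32%. Between conditions, the lower D12 GLI1 OE library was below the higher D8 control. The log2 fold change of D12 over D6 was 8.10 ± 1.19 in GLI1 OE cells (edgeR adjusted p = 5.72e-05) and 8.72 ± 1.20 in controls (adjusted p = 3.09e-05). The step from D6 to D8 passed the test in GLI1 OE cells (4.49 ± 1.16, adjusted p = 0.00774) and in controls (6.41 ± 1.13, adjusted p = 0.000894). The GLI1 OE step was lost without library 14 (adjusted p = 0.438; 0.000372 to 0.438 over 15 alternatives).

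Pdk4, the kinase that shuts pyruvate dehydrogenase, rose at each step after D6. It had 1.71, 1.62 and 2.03 CPM in D6 GLI1 OE and 3.44, 5.14 and 3.57 CPM in D6 control libraries, 30.2 and 8.36 CPM against 38.4 and 17.7 CPM at D8, and 90.5 and 47.6 CPM against 132 and 95.9 CPM at D12. D12 libraries were above all D8 libraries, which were above all D6 libraries. D12 was above D6 by a log2 fold change of 5.27 ± 0.62 in GLI1 OE cells (edgeR adjusted p = 8.44e-06) and of 4.82 ± 0.60 in controls (adjusted p = 1.27e-05). The second step, D12 over D8, was 1.84 ± 0.62 in GLI1 OE cells (adjusted p = 0.0337) and 2.03 ± 0.62 in controls (adjusted p = 0.02). It was lost in GLI1 OE cells without D8 library 18 (adjusted p = 0.195) or D12 library 10 (0.208), and in controls without D8 library 17 (0.155) or D12 library 19 (0.094).

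Ckm was close to the detection limit until D8. It had 1, 0 and 1 counts in D6 GLI1 OE libraries and 3, 2 and 1 counts in D6 controls. At D8 it had 21 and 1 counts in GLI1 OE and 17 and 4 counts in controls, and at D12 23 and 20 counts in GLI1 OE and 24 and 31 counts in controls. By summed counts scaled for library size, D12 exceeded D6 by 36.0-fold in GLI1 OE cells (exact 95% interval 9.37 to 306, 43 counts against 2) and by 15.8-fold in controls (6.79 to 44.8, 55 counts against 6); these intervals cover counting error only. Both passed the test (edgeR adjusted p = 0.00209 in GLI1 OE cells and 0.00394 in controls). Per kilobase, this muscle creatine kinase had the lowest level of the 10 genes in all 7 groups.

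Esrra, the nuclear receptor, rose by a smaller step with little spread. Its D6 libraries had 23.3, 22.9 and 23.7 CPM in GLI1 OE and 28.3, 27.2 and 23.9 CPM in control libraries. At D8 it had 31.9 and 25.7 CPM in GLI1 OE and 35.4 and 26.6 CPM in control libraries, and at D12 47.4 and 38.6 CPM against 55.6 and 48.0 CPM. The D12 libraries lay above all earlier ones. D12 over D6 was 0.88 ± 0.16 on the log2 scale in GLI1 OE cells (edgeR adjusted p = 0.000292) and 0.97 ± 0.16 in controls (adjusted p = 0.000133). D12 over D8 was 0.58 ± 0.18 in GLI1 OE cells (adjusted p = 0.0221; 0.147 without D8 library 18 and 0.162 without D12 library 10) and 0.74 ± 0.18 in controls (adjusted p = 0.00531; 0.0689 without D8 control library 17).

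Hadha and Acadm, the enzymes of the oxidation spiral, moved less. Hadha had 115, 137 and 122 CPM in GLI1 OE libraries and 121, 133 and 116 CPM in controls at D6, 165 and 147 CPM against 184 and 179 CPM at D8, and 176 and 148 CPM against 214 and 170 CPM at D12. Its D12 libraries lay above its D6 libraries without overlap in both conditions, as did 38.3% of all genes in GLI1 OE cells and 38.1% in controls. In GLI1 OE cells the log2 fold change of D12 over D6 of 0.38 ± 0.16 missed the threshold (edgeR adjusted p = 0.0557), and over 15 alternatives the adjusted p ran from 0.0154, without the D5 libraries in the fit, to 0.367. In controls it rose (0.64 ± 0.16, edgeR adjusted p = 0.00384), a call lost without D12 control library 19 (adjusted p = 0.0742). The rise of Hadha was in place by D8 in controls (log2 fold change over D6 0.56 ± 0.16, adjusted p = 0.0168), although leaving out D6 control library 3, D8 control library 13 or D8 control library 17 took the adjusted p to 0.0567, 0.102 and 0.069.

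Acadm, the medium-chain acyl-CoA dehydrogenase, had 66.3 and 48.6 CPM in D12 GLI1 OE libraries, against 38.9, 26.1 and 29.9 CPM in D6 GLI1 OE libraries, with no overlap. The log2 fold change of D12 over D6 was 0.86 ± 0.35 (edgeR adjusted p = 0.0476), and leaving out D6 GLI1 OE library 16 (adjusted p = 0.129) or 4 (0.102) or D12 GLI1 OE library 10 (0.274) or 20 (0.0518) ended the call, as did limma-voom (0.0622), no filter on low counts (0.0645) and total counts as scaling (0.0705). In controls it had 80.8 and 59.1 CPM at D12 against 63.8, 45.2 and 42.1 CPM at D6, which overlap (0.47 ± 0.35, adjusted p = 0.261).

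By step, GLI1 OE cells had 4 of the 10 genes higher at D8 than at D6 (Mb, Pdk4, Ckm and Eno3), against 40.1% of all genes in either direction, 20.3% that rose and 19.8% that fell. At D12 over D8 they had 3 higher (Mb, Pdk4 and Esrra), against 33.5% in either direction and 15.9% that rose. With only the compared groups fitted, this step had 0 of the 10 and 0 of all genes called, against 4985 of all genes in the main fit. The edgeR adjusted p was then 0.146 for Mb, 0.158 for Pdk4 and 0.131 for Esrra. Untreated cells had 3 higher at D8 than at D6 (Mb, Pdk4 and Hadha), against 34.8% in either direction and 17.3% that rose, and 2 higher at D12 than at D8 (Pdk4 and Esrra), against 36.3% and 16.9%. Ckm and Eno3 at D8 over D6 in GLI1 OE cells were lost without D8 library 14 (adjusted p = 0.86 and 0.921), D6 library 16 (0.0705 and 0.135) or D6 library 4 (0.0511 and 0.12). Mb at D12 over D8 (3.61 ± 1.08, edgeR adjusted p = 0.0198 in GLI1 OE cells) was lost without library 18 (0.0888) or library 10 (0.118). In controls that step of Mb was not called (2.31 ± 1.01, adjusted p = 0.0876) and passed without D8 control library 13 (0.0198).

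Cd36, Fabp3, Eno3 and Cpt1b did not pass the test for D12 over D6 in either condition. Fabp3 had 20.7 and 7.88 CPM in D12 controls, and its log2 fold change over D6 was 0.93 ± 0.78 (edgeR adjusted p = 0.317). Eno3 had 175, 134 and 92.9 CPM in controls at D6, 242 and 159 CPM at D8 and 200 and 101 CPM at D12, with overlap at each step. Cd36, the fatty acid transporter, spread widely inside a group: the D6 controls had 32.3, 3.74 and 11.9 CPM, and the D8 controls 21.5 and 4.62 CPM. In GLI1 OE cells it had 27.0, 8.83 and 12.6 CPM at D6, 6.76 and 6.36 CPM at D8 and 15.3 and 20.3 CPM at D12. The D8 libraries were below all D6 and all D12 libraries of that condition, but neither step passed the test (edgeR adjusted p = 0.279 each). Of all genes, 30.7% were lower without overlap at D8 over D6 and 31% higher at D12 over D8.

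**Figure D1:**
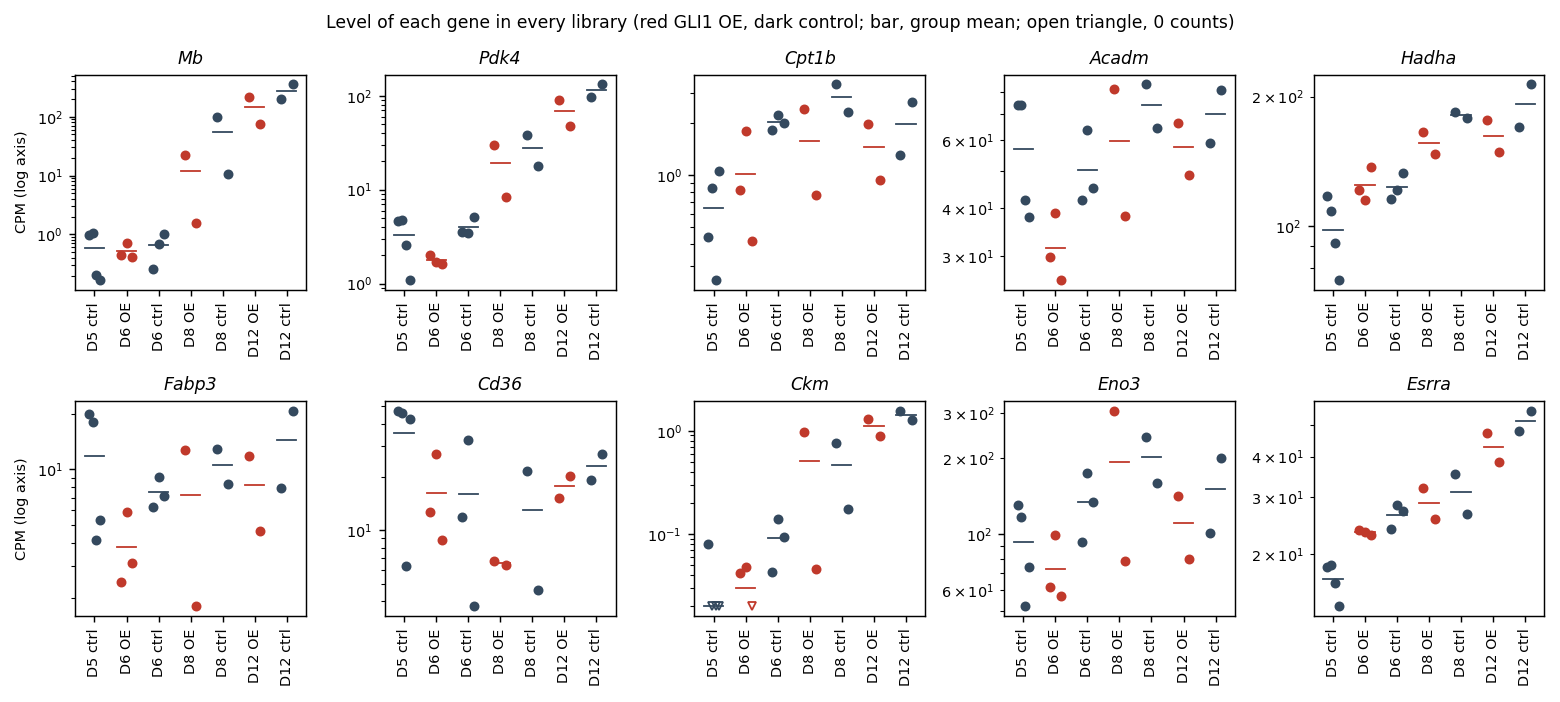
Level of each of the 10 genes in every library, in CPM on a log axis, by day with GLI1 overexpression (OE, red) left of control (dark) at D6, D8 and D12; points are libraries, bars are group means and open triangles are libraries with 0 counts. Mb has 76.7 and 214 CPM in D12 GLI1 OE libraries, against 0.712 CPM or less in D6 ones, while the D6 and D8 control libraries of Cd36 span a wide range.

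**Figure D2:**
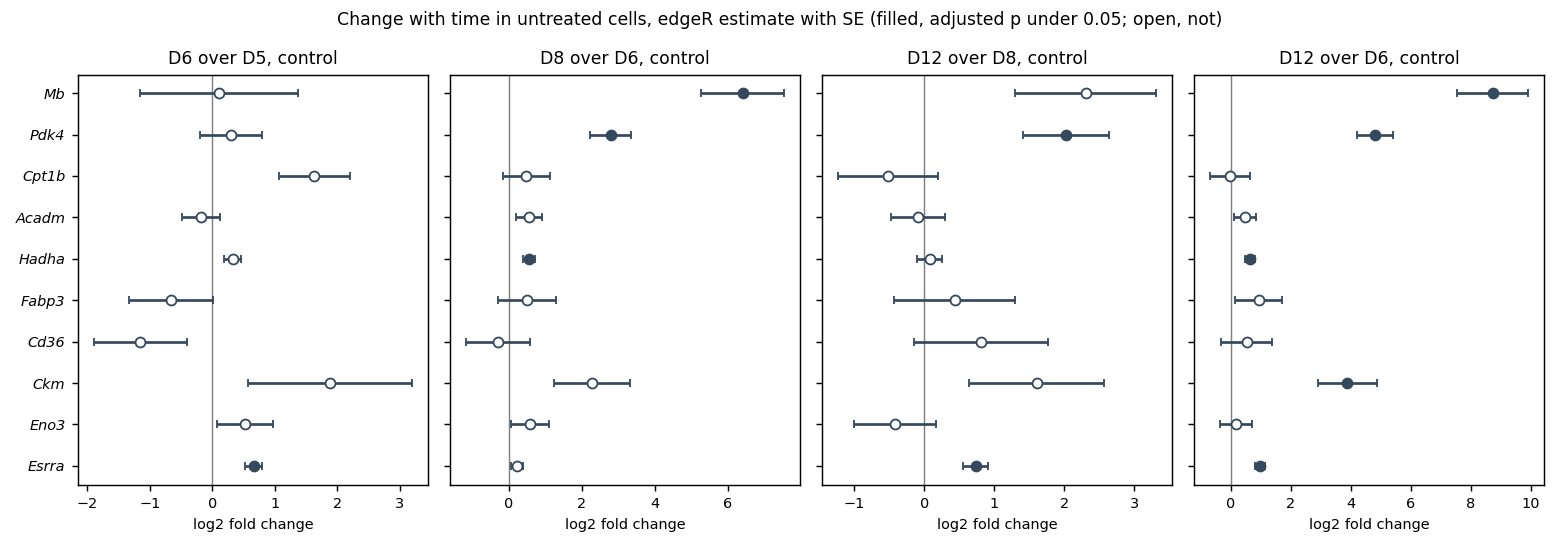
Change of each gene with time in untreated cells, as edgeR log2 fold change with its SE, for D6 over D5, D8 over D6, D12 over D8 and D12 over D6; each panel has its own scale, and filled points passed an adjusted p of 0.05. Mb, Pdk4, Hadha, Ckm and Esrra are filled in the panel of D12 over D6.

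Per kilobase of main transcript, the order of the genes differed between days. Eno3 had the highest level in D6 controls (85.6 ± 26.2 CPM per kilobase (SD, n = 3)), followed by Hadha (30.7 ± 2.15) and Acadm (24.6 ± 5.73), whose ranges overlapped each other. In D12 controls Mb came first with 251 ± 101 CPM per kilobase (SD, n = 2), above Eno3 (96.4 ± 44.8) and Hadha (47.7 ± 7.68) without overlap of neighbouring ranges. Acadm (34.2 ± 7.49), Pdk4 (32.8 ± 7.41) and Esrra (23.1 ± 2.40) followed; the ranges of Acadm and Pdk4 overlapped, as did those of Esrra and Fabp3 (17.4 ± 11.0). Cd36 (6.77 ± 1.61), Cpt1b (0.685 ± 0.327) and Ckm (0.518 ± 0.0756) were lowest. In D12 GLI1 OE libraries Mb again came first (132 ± 88.1), but its range overlapped that of Eno3 (70.8 ± 27.7).

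Cpt1b is a special case of counting. The deposited TPM values (transcript abundance scaled for length and depth) at D5 were 56.9 ± 24.1 (SD, n = 4), close to Acadm (68.1 ± 23.5 TPM) and Hadha (56.2 ± 11.0 TPM), yet the 4 D5 libraries held 11, 21, 6 and 25 counts of Cpt1b. Its D5 counts per kilobase relative to its TPM were 0.866% of the median of 13025 genes, and 68 genes (0.522%) fell under 0.1 of that median. For the other 8 energy genes with at least 10 counts at D5, this ratio was 0.604 to 1.06 of the median. In GENCODE M21 (GRCm38), Cpt1b (chr15:89416405-89425863, minus strand) lies wholly inside Gm44502 on the same strand; whether that overlap took reads from the count table was not tested. The counts of Cpt1b are therefore uncertain. Scaled by its D5 ratio of counts to TPM, its D12 control level would be 79.0 rather than 0.685 CPM per kilobase. That ratio is known at D5 alone, in the libraries that stand apart, and whether it holds at D12 was not tested, so 79.0 is no measured level. The same scaling gave 28.8 rather than 17.4 CPM per kilobase for Fabp3.

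**Figure D3:**
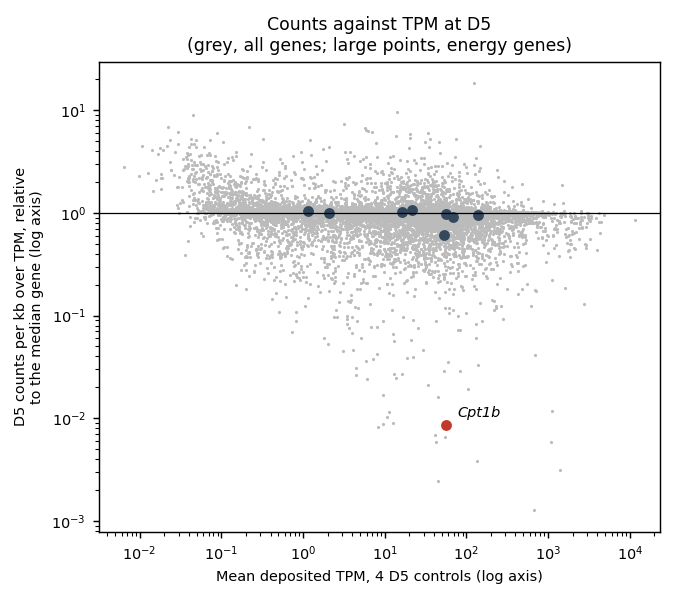
Counts per kilobase over TPM at D5, relative to the median gene (log axis), against mean TPM of the 4 D5 controls (log axis); grey points are genes and large points are the energy genes. Cpt1b, in red, lies at 0.866% of the median, while the other 8 lie between 0.604 and 1.06 times it.

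While GLI1 was induced at D6, none of the 10 genes passed the test, against 4.14% of all genes tested (3.02% higher and 1.12% lower). At D8 and D12, after the doxycycline was removed, again 0 of 10 passed, against 0% of all genes at either day. At an unadjusted p under 0.05, edgeR counted 0, 1 and 0 of the 10 at D6, D8 and D12, against 15.8%, 5.95% and 5.64% of all genes; the 1 was Mb at D8. DESeq2 and limma-voom also called none of the 10 at any day. The estimates lay below 0 for 8 of the 10 genes at D6, 9 at D8 and 10 at D12, against 53.0%, 48.8% and 50.7% of all genes. The medians of the 10 were -0.78, -0.43 and -0.41 on the log2 scale, and those of all genes -0.02, 0.01 and 0.00. Over the same libraries the 16 cardiomyocyte markers had medians of -1.22, -0.68 and -0.81, with 16, 15 and 15 of 16 below 0 and none called at any day. The part of these markers in the lower estimates was not tested.

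At D6 the libraries of GLI1 OE and control cells did not overlap for 5 of the 10 genes, each lower in GLI1 OE, against 13.8% of all genes. Pdk4 had 1.71, 1.62 and 2.03 CPM in GLI1 OE libraries and 3.44, 5.14 and 3.57 CPM in controls, a log2 fold change of -1.18 ± 0.57 (edgeR adjusted p = 0.339). Acadm had 38.9, 26.1 and 29.9 CPM in GLI1 OE libraries and 63.8, 45.2 and 42.1 CPM in controls (-0.67 ± 0.32, adjusted p = 0.332). Fabp3, the cytosolic carrier, had 5.84, 3.10 and 2.44 CPM in GLI1 OE libraries, against 9.12, 7.15 and 6.21 CPM in controls (-0.98 ± 0.73, adjusted p = 0.601). All 3 were lower in every GLI1 OE library than in any control, but none passed the test. Esrra and Cpt1b also did not overlap (-0.18 ± 0.14 and -0.99 ± 0.60, edgeR adjusted p = 0.634 and 0.483), but their groups nearly touched. Esrra had 23.7 CPM in its highest GLI1 OE library and 23.9 CPM in its lowest control. Cpt1b, whose counts are uncertain, had 1.80 CPM in its highest GLI1 OE library and 1.83 CPM in its lowest control. Pdk4 was called when the D6 libraries were fitted alone (adjusted p = 0.0337; 0.0337 to 0.675 over 16 alternatives).

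Eno3, the muscle enolase, had 99.3, 56.8 and 61.9 CPM in D6 GLI1 OE libraries and 175, 134 and 92.9 CPM in D6 controls, where the highest GLI1 OE library overlapped the lowest control (-0.88 ± 0.48, edgeR adjusted p = 0.422). Eno3 was lower in GLI1 OE in each of the 3 pairs of adjacent library number, and with these as a replicate block the adjusted p was 0.326. Hadha and Cd36 had estimates near 0 (0.01 ± 0.15 and 0.01 ± 0.78). The SE of Cd36 came with control libraries that ran from 3.74 to 32.3 CPM. Ckm had 2 counts in the 3 GLI1 OE libraries and 6 in the 3 controls, or 0.331 times the control level (exact 95% interval 0.0327 to 1.85).

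The authors' deposited table for D6 lists 9 of the 10 genes and has 3 of them under 0.05. The share of all genes in it under 0.05 was not counted, so the 3 have no background here. In the authors' deposited table Pdk4 stands at -1.17 with an adjusted p of 0.00292, Eno3 at -0.87 with 0.0148 and Acadm at -0.66 with 0.0238. Fabp3 stands at -0.98 with 0.0544 and Cpt1b at -0.99 with 0.305 in the same authors' deposited table. The authors' deposited list of changed D6 genes, 1652 in all, holds Pdk4, Cpt1b, Acadm and Eno3. The share of all genes in it was not counted either, so these 4 have no background here. With Cpt1b at 0.305, that list does not follow a threshold of 0.05 on the table's adjusted p. The authors' deposited lists for D8 (11 genes) and D12 (74 genes) hold none of the 10. Fitted here with the D6 libraries alone, edgeR called 1254 genes, against 616 with all 18 libraries.

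At D8 the GLI1 OE libraries were far apart, with a chi-square per gene of 122, against 48.2 for the control pair. Mb had 22.3 and 1.59 CPM in GLI1 OE libraries and 101 and 10.7 CPM in controls (-2.23 ± 1.02, edgeR adjusted p = 0.831), and the groups overlapped. Between libraries of adjacent number it was lower in GLI1 OE both times (library 14 against control library 13, and library 18 against control library 17), and with those pairs as a replicate block the estimate was -2.41 (adjusted p = 0.45). Left without GLI1 OE library 14, the estimate was -5.14; without GLI1 OE library 18, -1.32; without control library 17, -3.08; and without control library 13, 0.16. None of these passed the test (adjusted p 0.116 to 1.0 over 14 alternatives). Library 18, with the lowest cardiomyocyte markers, was also the lower of the pair for every one of the 10 genes: it had 78.5 CPM of Eno3 and 1.82 CPM of Fabp3, against 307 and 12.7 CPM in library 14. Hadha was the only one of the 10 without overlap (165 and 147 CPM in GLI1 OE libraries, against 184 and 179 CPM in the controls), against 15.2% of all genes that were lower without overlap.

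At D12, 6 days after the doxycycline was removed, Pdk4 and Esrra were lower in both GLI1 OE libraries than in either control, 2 of 10 against 16.4% of all genes. Pdk4 had 90.5 and 47.6 CPM in GLI1 OE libraries and 132 and 95.9 CPM in controls (-0.73 ± 0.59, edgeR adjusted p = 0.97). Esrra had 47.4 and 38.6 CPM in GLI1 OE libraries, against 55.6 and 48.0 CPM in controls (-0.27 ± 0.18, adjusted p = 0.923). Mb had 214 and 76.7 CPM in GLI1 OE libraries and 356 and 198 CPM in controls (-0.93 ± 0.97, adjusted p = 0.971), with overlap. The interaction test, which asks whether the GLI1 OE effect differed between days, called 0 of the 10 genes. Over all genes it called 0.631% for D8 minus D6 (0.0672% higher and 0.564% lower), 0.604% for D12 minus D6 (0.094% higher and 0.51% lower) and 0% for D12 minus D8.

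**Figure D4:**
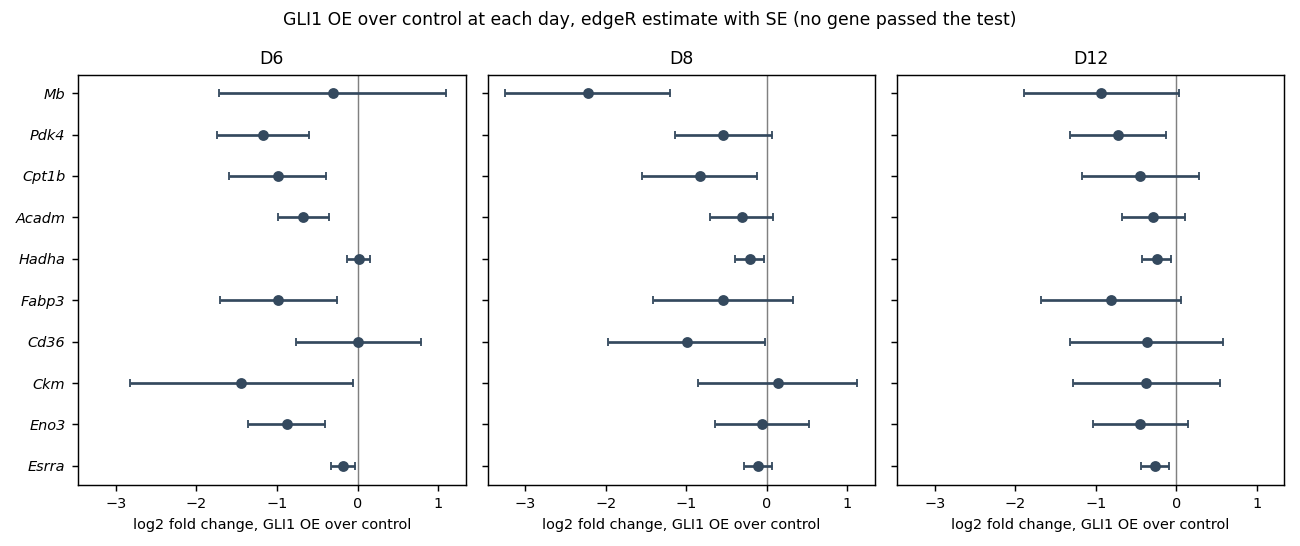
Log2 fold change of GLI1 OE over control for the 10 genes at D6, D8 and D12, as edgeR estimates (points) with SE (bars). Estimates lie below 0 for 8, 9 and 10 of the 10 genes, and none passed the test.

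Eno3 was set beside the summed cardiomyocyte markers of the same libraries at D12 and D8. At D12 the 4 libraries stood in the same order by both: Eno3 had 80.0 and 141 CPM in GLI1 OE libraries with 3798 and 8338 CPM of markers, and 101 and 200 CPM in control libraries with 6683 and 15391 CPM. Mb, Fabp3, Acadm, Hadha and Cpt1b stood in that order at D12 too (Mb at 76.7, 198, 214 and 356 CPM). Pdk4, Cd36, Ckm and Esrra did not. The share of all genes that stood in that order at D12 was not counted, so these genes have no background here. Among D8 GLI1 OE libraries, library 14 had 15633 CPM of markers and 307 CPM of Eno3, and library 18 had 1574 CPM of markers and 78.5 CPM of Eno3. The order was not strict: D8 control library 13 had the most markers (18457 CPM) but 242 CPM of Eno3. Although Mb kept the order of the markers within D12, it did not follow the same line across days. D12 GLI1 OE library 20 had 3798 CPM of markers and 76.7 CPM of Mb, while D6 control library 11 had 12465 CPM of markers and 0.698 CPM of Mb. Days form clusters here, so no correlation over all libraries is given.

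**Figure D5:**
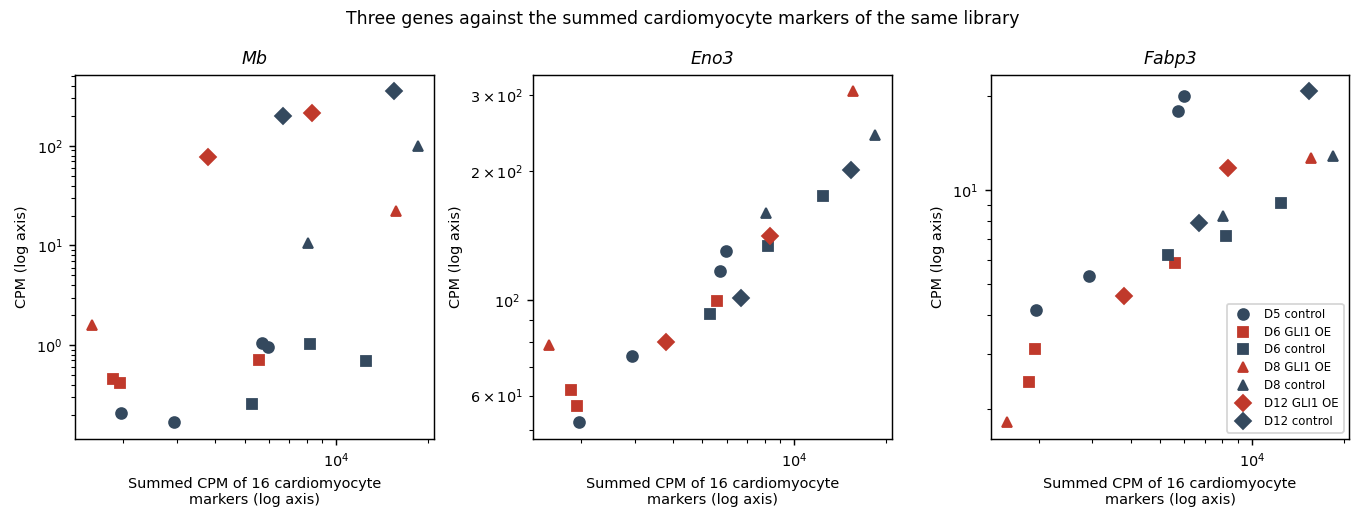
CPM of Mb, Eno3 and Fabp3 (log axis) against the summed CPM of 16 cardiomyocyte markers in the same library (log axis); red, GLI1 OE; dark, control; symbols give the day. Mb separates by day, with D12 libraries at 76.7 CPM or more, and Eno3 lies between 80.0 and 200 CPM at D12, in the order of the markers. Mb and Fabp3 also stand in that order at D12, and the share of all genes that do was not counted.

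Other genes of energy metabolism moved in both directions in untreated cells. Of 25 mitochondrial fatty acid oxidation genes tested, 10 rose and 3 fell at D12 over D6. Of all genes tested, 29.8% rose and 30.5% fell in the same comparison, so the share of the list that changed was no larger than the 60.3% over all genes. Acadl, the long-chain acyl-CoA dehydrogenase, rose by 2.07 ± 0.20 on the log2 scale (edgeR adjusted p = 1.07e-06) and Eci2, an enoyl-CoA isomerase, by 1.37 ± 0.15 (adjusted p = 3.93e-06). Acsl5, which activates fatty acids, fell by 0.85 (adjusted p = 0.0138) and Acad9 fell by 0.30 (0.0159).

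Of 15 tested genes of fatty acid uptake, binding and storage, 8 rose and 4 fell, beside the same 29.8% and 30.5% of all genes. The transporter Slc27a1 rose by 2.17 ± 0.14 (edgeR adjusted p = 8.18e-08) and the lipase Lipe by 1.74 ± 0.18 (2.19e-06). Acaca, which makes malonyl-CoA, fell by 1.21 (adjusted p = 1.28e-05) and Slc27a4 fell by 0.60 (0.00703). Of 12 genes of pyruvate dehydrogenase control, 5 rose and 1 fell, beside the same shares: the kinase Pdk2 rose by 3.90 ± 0.41 (3.02e-06), the pyruvate carrier subunit Mpc2, listed as Brp44, by 1.43 ± 0.23 (0.00011), and Pdhx fell by 0.50 (0.00639).

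Regulators of oxidative metabolism included 8 of 17 that rose and 2 that fell, close to the 60.3% of all genes that changed in either direction. Ppard and Rxrb, nuclear receptors that act on fatty acid genes, rose by 1.72 ± 0.14 (edgeR adjusted p = 3.92e-07) and 1.55 ± 0.14 (8.49e-07). Tfam, the mitochondrial DNA packaging factor, fell by 0.86 (adjusted p = 6.37e-05) and Nrf1 fell by 0.49 (0.0115). Of 7 phosphagen genes, the creatine transporter Slc6a8 rose by 1.21 ± 0.11 (7.2e-07), Gatm, of creatine synthesis, by 1.09 ± 0.36 (0.0169), and Gamt fell by 1.30 (0.0094).

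Glycolysis and glucose or lactate transport genes were mostly higher at D8 than at D6, and several were lower at D12 than at D8. At D8 over D6, 14 of 23 rose and 1 fell; at D12 over D8, 0 rose and 9 fell; at D12 over D6, 8 rose and 5 fell. Backgrounds were 17.3% of all genes that rose and 17.5% that fell at D8 over D6, and 16.9% and 19.4% at D12 over D8. Of this list, Aldoc rose by 4.19 ± 0.72 (edgeR adjusted p = 0.000752) and Eno2 by 3.05 ± 0.55 (0.000976) at D8 over D6, and Slc16a1, a lactate transporter, fell by 0.82 (0.0149). At D12 over D8, Pgam1 fell by 1.77 (0.000539) and Slc2a3, a glucose transporter, fell by 2.06 (0.00114). Pgam1, like Gapdh, was far higher at D5 (135 to 156 CPM) than in the later libraries (6.52 to 34.3 CPM). What sets its D5 level apart was not tested. Counted at D8 over D6, fatty acid oxidation had 11 of 25 that rose and none that fell.

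Between GLI1 OE and control cells, the share of these genes called was near that of all genes (4.14% at D6, and 0% at D8 and at D12). Estimates below 0 at D6, D8 and D12 numbered 19, 23 and 20 of 25 for fatty acid oxidation and 18, 21 and 19 of 23 for glycolysis. They numbered 10, 9 and 6 of 15 for uptake and 9, 9 and 10 of 12 for pyruvate dehydrogenase. Phosphagen genes had 6, 6 and 6 of 7, and regulators 10, 11 and 13 of 17. Over all genes 53%, 48.8% and 50.7% lay below 0, and the difference was not tested. At D6, Hadh, the short-chain hydroxyacyl-CoA dehydrogenase, was lower (-0.39 ± 0.10, edgeR adjusted p = 0.0349), 1 of 25 fatty acid oxidation genes, and Hk2, a hexokinase, was higher (1.02 ± 0.26, adjusted p = 0.0409), 1 of 23 glycolysis genes. Uptake, pyruvate dehydrogenase, phosphagen and regulator lists had no call, and none of the 6 lists had one at D8 or D12. Their genes of highest level at D6 were Plin2, a lipid droplet protein (0.43 ± 0.18), Pdha1, the pyruvate dehydrogenase subunit (-0.24 ± 0.13), Ckb, the brain creatine kinase (0.73 ± 0.30), and Hif1a, a hypoxia factor (-0.14 ± 0.19).

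Comparisons with D5 rest on the libraries that stand apart. In controls, Esrra had 23.9 to 28.3 CPM at D6 and 13.8 to 18.5 CPM at D5, without overlap (0.67 ± 0.13 on the log2 scale, adjusted p = 0.00341 in edgeR). It was the only one of the 10 called, against 18.4% of all genes in either direction and 8.39% that rose. D6 GLI1 OE cells against D5 controls had Esrra higher (0.48 ± 0.14, adjusted p = 0.0155) and Acadm lower (-0.85 ± 0.30, adjusted p = 0.0495), against 29.5% of all genes, and the Acadm call ended when D5 library 1 (0.127) or 2 (0.125), or D6 library 12 (0.0501), 16 (0.179) or 4 (0.138), was left out, the Esrra call when D6 library 4 was (0.0536). D12 controls had 6 of 10 higher than at D5 and none lower, against 66.5% of all genes in either direction, 32.2% that rose and 34.3% that fell: Mb, Pdk4, Ckm, Esrra, Hadha and Cpt1b. Ckm had 55 counts at D12 against 2 at D5, which is 69.5-fold after scaling (exact 95% interval 18.4 to 588). The Cpt1b call (adjusted p = 0.034) ended without D5 library 1 (0.0743), D5 library 3 (0.0746) or D12 library 19 (0.305), with only the compared groups fitted (0.0573), and with the similar D5 libraries 1 and 2 summed as 1 (0.0506). That sum also ended the Acadm call of D6 GLI1 OE cells over D5 controls (0.123).

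Over the 18 libraries, the genes whose log2 CPM ran most like these are named as a description. Mb ran most like Ctsa, a lysosomal carboxypeptidase, and Acadvl, the very long-chain acyl-CoA dehydrogenase (Pearson r = 0.987 each), and Pdk4 most like Acadvl (0.995). Esrra ran most like Atp5sl (0.978), Hadha like Creld1 (0.968), Acadm like Camk2a (0.936) and Ckm like Inpp5a (0.972). Eno3 ran most like Sh3bgr (0.964), Fabp3 like Ldb3, a Z-disc protein (0.909), Cpt1b like Kcng2 (0.879) and Cd36 like Lpp (0.851). The libraries of a day share their stage, which these values do not separate from a gene's own pattern.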

How the data were processed

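PolyA RNA was sequenced as stranded single-end reads with a TruSeq kit, per the labels' protocols; no aligner, counting program or genome build is named in the sources used. The authors deposited raw read counts per gene symbol for 18 libraries, TPM values for the 4 D5 controls, and tables of log2 fold changes with p-values; the deposited D6 table also holds a mean signal (counts over size factors) and a test score, which were not used. The count columns carry library numbers, not the labels' replicate numbers.

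Counts were analysed with edgeR 4.0.16 in R 4.3.3: filterByExpr with a minimum count of 10, TMM scaling, 1 robust quasi-likelihood fit over 7 groups and 18 libraries, with Benjamini-Hochberg adjustment over 14892 genes and calls under 0.05. The script was tested on simulated data. Alternatives were other scalings and filters, DESeq2 1.42.0, limma-voom (limma 3.58.1), a replicate block, the compared groups alone and leaving out each library; 2 comparisons of D12 with D6 and 3 alternatives were added after seeing the data. Total counts of 18470785 to 26184339 per library limit the precision of genes with few counts.

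The 10 genes and all lists were chosen with earlier results of these data known. All 10 were named, with Gli1; of each pathway list, up to 2 genes per direction with the smallest adjusted p among those called, or else the gene of highest level; and for each of the 10 the genes of highest Pearson r, leaving out predicted names. Of the list genes, Mpc1, Mpc2, Pkm and Perm1 stood under older names found in the RefSeq gene table. Transcript lengths are those of the main protein-coding transcript in GENCODE M21.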

Additional observations from a re-analysis of the deposited data

Results flagged for a closer look

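In the 4 D5 control libraries, 4 of the 19 sets of values examined held a library far from the rest. The measure was the gap to its nearest neighbour over the whole range (critical value 0.829). Chance flags about 1 in 20 of independent normal sets. CPM and TPM here come from the same libraries, and libraries 1 and 2 were close to each other. The 4 flags therefore cannot be set against that rate. Cd36 had 6.26 CPM in library 3 and 42.3 to 47.3 CPM in the other 3 (0.877), and its deposited TPM showed the same kind of gap, with 3.84 TPM at the low end (0.873). Cpt1b had 20.8 TPM in 1 replicate and 67.4 to 71.3 TPM in the other 3 (0.922). Ckm had 2 counts in library 1 and 0 in the other 3 (1.0), a gap of 2 counts.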

How the results depend on the processing

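Over 2280 values of the 10 genes under alternatives, 2199 kept their call or lack of one, 54 lost a call, 27 gained one and none that was called reversed. The number of the 10 genes called moved by over 1.5 times in these settings. With only the compared groups fitted it was 1 for GLI1 OE against control at D6, 2 for GLI1 OE D8 over D6, 0 for GLI1 OE D12 over D8 and 1 for GLI1 OE D6 over control D5. For control D6 over D5 it was 3 with total counts as scaling, 2 in DESeq2 and 2 in limma-voom. For GLI1 OE D8 over D6 it was 1 in limma-voom. For GLI1 OE D6 over control D5 it was 1 with no filter, 4 in DESeq2 and 1 in limma-voom. Smaller moves were GLI1 OE D12 over D6 at 4 with limma-voom, no filter or total counts and 6 with DESeq2 or only the compared groups; GLI1 OE D8 over D6 at 5 with DESeq2 or total counts and 3 with no filter or a minimum count of 50; control D12 over D8 at 3 with limma-voom; control D12 over D6 at 4 with a minimum count of 50; and control D12 over D5 at 5 with a minimum count of 50, only the compared groups or D5 libraries 1 and 2 summed. Leaving out 1 library gave 1 to 2 for control D6 over D5, 2 to 3 for control D8 over D6, 0 to 3 for control D12 over D8, 5 to 6 for control D12 over D5, 4 to 5 for D12 over D6 in either condition, 1 to 5 for GLI1 OE D8 over D6, 0 to 4 for GLI1 OE D12 over D8 and 0 to 2 for GLI1 OE D6 over control D5; it gave 0 for GLI1 OE against control at each day and for the interactions. Without the 4 D5 libraries the D12 over D6 counts were 6 in GLI1 OE cells and 5 in controls. The cause of these moves was not tested.

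Over all genes, GLI1 OE at D6 called 616, against 1254 with the D6 libraries alone and 1030 in DESeq2; DESeq2 called 40 at D8 and 14 at D12, and limma-voom 1 at D12. The interaction D8 minus D6 called 94 genes, against 233 in DESeq2, and D12 minus D6 called 90, against 281 in DESeq2 and 208 with only the compared groups. GLI1 OE D12 over D8 called 4985 genes, against 0 with only the compared groups. Total counts as scaling shifted the median of all genes by 0.12 for control D6 over D5, 0.14 for GLI1 OE D6 over control D5, -0.17 for control D12 over D8 and over D6, and -0.11 for GLI1 OE D12 over D8; the share of calls that were higher became 68.3%, 68.5%, 30.8% (D12 over D8) and 36.5%, against 45.7%, 50.1%, 46.6% and 47.6%.

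A replicate block over adjacent library numbers called 667 genes at D6, 0 of the 10 genes at D6, D8 and D12, and 3 for GLI1 OE D8 over D6. Deviations of such pairs correlated at 0.617, 0.445 and 0.520 at D6, 0.491 at D8 and -0.231 at D12. Adjacent libraries thus deviated together at D6 and D8 and not at D12, and the labels name no such pairing. With the D12 pairs crossed, 859 genes were called at D6, 1 at D8 and 0 at D12, and 5 of the 10 genes for GLI1 OE D8 over D6. The crossed pairing was added after seeing the data, so its calls are no independent check of the pairing. Genes under about 10 counts, Ckm among them, are limited by depth.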
